A study of Mus musculus with 45 samples.

Results

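The 10 genes described here encode enzymes that build, recycle and break down glutathione. They were chosen by name, and all 10 were found among the 28454 genes listed in a table of RNA sequencing counts from mouse mammary tumour cell lines. Gclc and Gclm encode the catalytic and modifier subunits of glutamate-cysteine ligase, Gss encodes glutathione synthetase and Gsr encodes glutathione reductase. Chac1 and Chac2 encode cytosolic γ-glutamylcyclotransferases that degrade glutathione, Ggt1 and Ggt7 belong to the γ-glutamyltransferase family, and Lap3 and Cndp2 encode peptidases that act on the cysteinylglycine dipeptide.

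The study grew 11 lines in control medium and 4 of them also without cysteine and cystine, with 3 cultures in each of the 15 groups (45 libraries). All lines descend from mammary tumours of MMTV-cMYC mice, in which a mouse mammary tumour virus promoter drives c-MYC in mammary epithelium. MYAZ16.1e, MYAZ12.3i and MYAZ6.6g were isolated from such tumours, Myc310 is a single line from a mouse with multiple tumours, LM1, LM2 and LM3 were recovered from lungs of mice whose mammary fat pad had received Myc310, and LM1-LM, LM2-LM and LM3-LM came from lungs after injection of LM1. The remaining line is MYAZ12.3i with NDI1, the yeast single-subunit NADH dehydrogenase. Cultures of 250000 cells per well were given fresh control medium, or medium lacking cysteine and cystine, after 24 h and were collected 6 h later. Only MYAZ16.1e, Myc310, LM1 and its derivative LM1-LM were deprived, and values for these 4 lines are given in that order. Under deprivation each subtype was represented by 1 isolated line.

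Glutathione is a tripeptide of glutamate, cysteine and glycine and the main small thiol that protects cells from oxidants. Glutamate-cysteine ligase performs the first and usually rate-limiting step of its synthesis, for which cysteine is commonly the scarce substrate. Glutathione reductase returns the oxidised dimer to the reduced form without new synthesis. The cyclotransferases cleave glutathione inside the cell, the transferases act on it at the cell surface, and both routes yield cysteinylglycine, from which dipeptidases release cysteine. Chac1 is a known target of the transcription factor ATF4, which is induced when amino acids are short, whereas Gclc, Gclm and Gsr are known targets of the oxidant-responsive factor NRF2.

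Between 19517859 and 29019988 reads were assigned to genes per library (median 22899900). The deepest was MYAZ16.1e control replicate 3. Its library number and that of MYAZ12.3i control replicate 2 are out of sequence with their groups. The MYAZ16.1e response and the comparisons of responses between lines were refitted without the former. The subtype and NDI1 comparisons were refitted without the latter only. Results that changed in these fits are given with the value obtained then. The submitters describe the 3 cultures of a group as technical replicates. Where each group is 1 line, the p-values thus measure the spread between cultures and not between independently derived lines. In the subtype comparisons the cultures of several lines formed 1 group. The spread there mixes cultures and lines, although cultures were counted as samples. The epithelial keratins Krt8 and Krt18 were high in every library (217 to 1731 and 94.0 to 550 CPM, counts scaled to library size), whereas the epithelial markers Epcam and Cdh1 (up to 0.802 and 0.284 CPM) and the basal keratin Krt5 (up to 0.252 CPM) were near 0. The leukocyte marker Ptprc (up to 0.233 CPM) and the alveolar and airway markers Sftpc, Sftpb and Scgb1a1 (up to 0.0839 CPM) were also near 0, while the macrophage-associated Cd68 ranged from 2.70 to 18.7 CPM, Itgam reached 1.33 CPM and the alveolar marker Ager ranged from 0.0504 to 1.97 CPM. Of 5 fibroblast markers tested under deprivation, 1 rose in each line and 2 fell in LM1 and LM1-LM (median log2 -0.87 and -0.60), and of 2 leukocyte markers 1 rose in every line but MYAZ16.1e. Of 10 mammary epithelial markers 5 could be tested under deprivation, of which 4 rose in MYAZ16.1e and 3 in each other line. Ager, the 1 alveolar marker tested, fell in MYAZ16.1e, LM1 and LM1-LM (log2 -1.12, -1.14 and -1.69). The part of these markers in the results was not tested. In bulk samples of this kind, fewer cells expressing a gene and less RNA per cell cannot be told apart.

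The promoters of Chac1, Chac2 and Gclm are shown because these 3 genes represent the degrading and the synthesising arm whose responses are compared here. Promoters from RefSeq (GRCm38.p6, from 250 bases before to 50 bases after the annotated start) were matched for 7 of the 10 members, all but Gclc, Gsr and Cndp2. Capitals mark matches, on either strand, to TGANGCAA, the core letters of the C/EBP-ATF response element bound by ATF4, or to TGACNNNGC, the core of the antioxidant response element bound by NRF2. Both motifs were chosen after the promoters had been seen and cannot begin at the same base of a strand.
Chac1, chr2:119350992-119351291, plus strand: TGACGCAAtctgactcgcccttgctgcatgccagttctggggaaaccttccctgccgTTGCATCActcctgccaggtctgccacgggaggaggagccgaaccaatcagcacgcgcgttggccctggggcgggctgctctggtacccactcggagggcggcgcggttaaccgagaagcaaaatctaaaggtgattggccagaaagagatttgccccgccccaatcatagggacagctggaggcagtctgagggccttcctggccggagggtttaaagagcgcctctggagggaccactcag
Chac2, chr11:30986316-30986615, minus strand: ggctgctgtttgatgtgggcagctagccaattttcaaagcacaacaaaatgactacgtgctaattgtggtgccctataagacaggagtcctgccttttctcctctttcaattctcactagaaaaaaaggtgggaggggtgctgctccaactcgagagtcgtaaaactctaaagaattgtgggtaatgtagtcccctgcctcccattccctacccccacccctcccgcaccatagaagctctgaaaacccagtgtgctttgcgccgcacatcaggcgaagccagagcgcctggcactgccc
Gclm, chr3:122245307-122245606, plus strand: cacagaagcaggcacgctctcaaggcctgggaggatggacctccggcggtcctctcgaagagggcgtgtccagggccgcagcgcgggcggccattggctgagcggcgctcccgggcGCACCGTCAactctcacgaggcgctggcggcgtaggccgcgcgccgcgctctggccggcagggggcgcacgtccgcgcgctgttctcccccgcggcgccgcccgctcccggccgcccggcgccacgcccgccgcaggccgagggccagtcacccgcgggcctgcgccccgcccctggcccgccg
The Chac1 window held 2 matches to TGANGCAA, beginning 250 and 193 bases before the start, of which the second lay on the reverse strand. The Gclm window held 1 match to TGACNNNGC, on the reverse strand, 134 bases before the start. The Chac2 window held neither set of letters, nor did those of Gss, Ggt7 and Lap3. Ggt1 has several annotated starts. Its windows held TGACNNNGC beginning 83, 36 and -41 bases before a start (a negative value lies after it), and another of its windows held neither. Of 32851 promoter windows of the same length, 3.69% held TGANGCAA and 12.4% held TGACNNNGC, so the second set of letters was the more common.

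All 10 genes are protein-coding. In the GRCm38 gene annotation Chac1 lies on chromosome 2 from 119351229 to 119354381 (plus strand), and its paralogue Chac2 on chromosome 11 from 30976707 to 30986350 (minus strand). Gclc lies on chromosome 9 from 77754535 to 77794485, Gclm on chromosome 3 from 122245557 to 122270732, Gsr on chromosome 8 from 33652523 to 33698163, Ggt1 on chromosome 10 from 75561604 to 75586200 and Lap3 on chromosome 5 from 45493374 to 45512691, each on the plus strand. Gss (155563181 to 155592810) and Ggt7 (155490379 to 155518237) are neighbours on the minus strand of chromosome 2, and both overlap Acss2 on the other strand. Cndp2 lies on the minus strand of chromosome 18. The libraries were stranded, but the strand setting of the counting is not given in the sources used here, so reads of Gss, Ggt7, Gclm and Chac2 that fall where a gene of the other strand overlaps may be shared. Gsr and Gclm also overlap a gene on their own strand (Gm24727 and Gm6061), which no strand setting separates.

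In control medium the recycling enzyme and a dipeptide peptidase were the most abundant members, and the transferases the least. Levels of different genes were compared as CPM per kilobase of exon. The median over the 11 lines was 61.7 for Gsr, 59.8 for Lap3, 23.0 for Gclc, 14.5 for Gclm, 11.6 for Cndp2, 5.83 for Gss, 5.45 for Chac2, 1.38 for Chac1, 0.309 for Ggt7 and 0.0959 for Ggt1. The median of both ligase subunits thus stood above those of the cyclotransferases in control medium, whereas Gss and Chac2 were close. Gsr and Lap3, the 2 highest, covered overlapping ranges of line means (32.1 to 76.2 and 51.5 to 86.8 CPM per kilobase), as did Gss (4.83 to 9.95) and Chac2 (4.09 to 6.49).

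Of the 9 members with counts in every line, Gclm differed least among the lines and Ggt7 most. Among control line means the highest exceeded the lowest 1.54-fold for Gclm, 1.59-fold for Chac2, 1.63-fold for Cndp2, 1.69-fold for Lap3, 1.94-fold for Gclc, 2.06-fold for Gss, 2.37-fold for Gsr, 5.43-fold for Chac1 and 22.0-fold for Ggt7. Gsr was lowest in MYAZ12.3i and highest in LM3, and Chac1 was lowest in LM1 and highest in the NDI1 line. Ggt7, an atypical member of the transferase family, ranged from 0.113 CPM per kilobase in LM1 to 2.48 in MYAZ12.3i. Ggt1, the classical cell-surface transferase, had 0 counts in all 3 MYAZ16.1e control libraries, which allows up to 3 counts in each, and its highest values were the 33, 23 and 29 counts of LM2-LM.

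**Figure D1:**
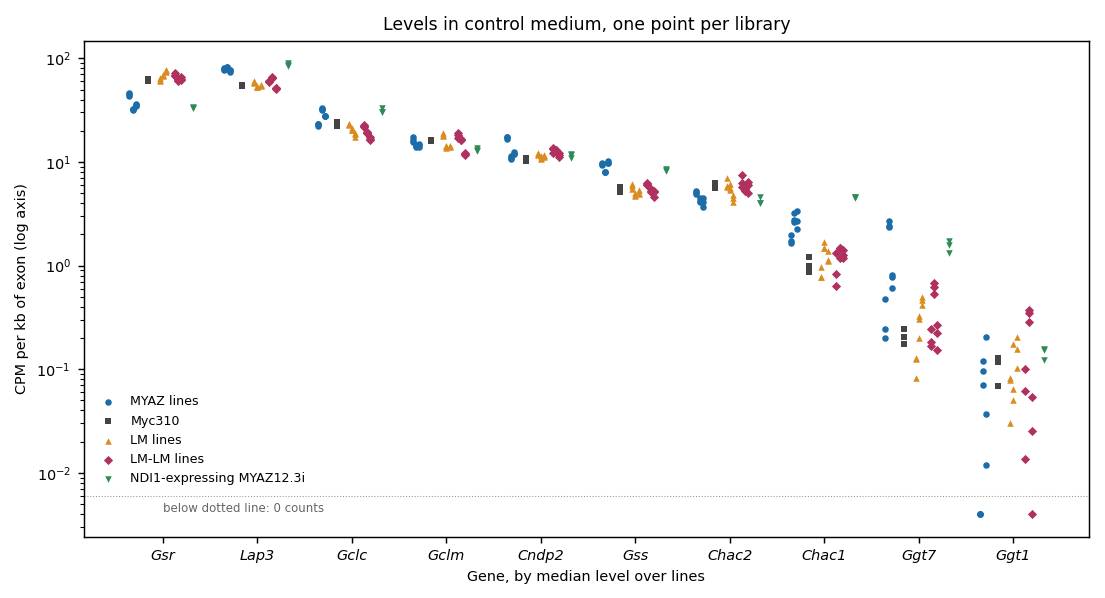
Levels of the 10 genes in control medium for the 11 lines, as CPM per kilobase of exon on a log axis, with 1 point per library and libraries with 0 counts drawn under the dotted line. Gsr and Lap3 sit highest (medians 61.7 and 59.8) and Ggt1 and Ggt7 lowest (0.0959 and 0.309), and the points of Ggt1 and Ggt7 spread widely.

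The question of the deprivation comparison is how each line changed its transcripts after 6 h without cysteine and cystine. Both cyclotransferases rose in all 4 lines, glutathione reductase fell in all 4, the modifier subunit Gclm fell slightly in all 4, the catalytic subunit Gclc fell in 3, and Gss was not past the threshold in any. Of the 9 members tested (Ggt1 was too low), 2 rose and 3 fell in MYAZ16.1e, and 2 rose and 5 fell in each of the other lines, by edgeR's quasi-likelihood test after Benjamini-Hochberg adjustment at 0.05. The response was broad, and the same test called 53.7% of all 13400 genes for MYAZ16.1e, 66.8% for Myc310, 71.1% for LM1 and 72.4% for LM1-LM, so that the number of members called (5 or 7 of 9) was near the background. What follows is therefore the direction and size of each change. Cultures of the 2 media did not overlap in 27 of 40 pairs of line and member. Full separation of 3 against 3 cultures gives p = 0.1 in an exact permutation test, and its share over all genes was not computed.

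Chac1 made the largest change of the 9 members tested. Its CPM in the 3 MYAZ16.1e cultures was 2.71, 2.82 and 3.19 in control medium and 180, 183 and 181 without cysteine. In Myc310 it was 1.62, 1.41 and 1.96 against 93.3, 94.5 and 93.6, in LM1 1.60, 1.26 and 1.27 against 111, 117 and 114, and in LM1-LM 1.03, 1.37 and 2.15 against 114, 114 and 121. Every deprived culture stood far above every control culture. The fitted rises were 61.3-fold, 56.0-fold, 84.9-fold and 79.4-fold in the 4 lines. By fold change Chac1 ranked 12th of 13400 genes from the top in MYAZ16.1e, 38th in Myc310 and 31st in both LM1 and LM1-LM. The deprived level was highest in MYAZ16.1e, the line that also had the highest control level of the 4.

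Chac2, which degrades glutathione more slowly and is usually described as constitutive, rose by a much smaller amount. In MYAZ16.1e its CPM was 6.71, 6.43 and 6.90 in control medium and 8.47, 9.64 and 9.11 without cysteine. In Myc310 it was 7.30, 8.32 and 7.71 against 13.8, 12 and 13.3. The values in LM1 were 7.53, 9.17 and 7.70 against 13.1, 11.2 and 12.8, and those in LM1-LM were 9.86, 8.14 and 7.6 against 15.4, 12.9 and 14.2. Deprived and control cultures did not overlap in any of the 4 lines. Chac2 rose 1.35-fold in MYAZ16.1e (log2 0.43, 95% interval 0.21 to 0.65, adjusted p = 0.00104 by edgeR's quasi-likelihood test). It rose 1.66-fold for Myc310, 1.55-fold for LM1 and 1.71-fold for LM1-LM (adjusted p at most 2.2e-06 by the same test).

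Gclc, the catalytic subunit of the first synthetic step, divided the lines. In MYAZ16.1e its CPM was 88.1, 88.2 and 83.4 in control medium and 86.3, 86.6 and 86.1 without cysteine, and the groups overlapped. In Myc310 it was 91.4, 84.4 and 84.6 against 68.9, 73.5 and 73.3. In LM1 it was 85.0, 86.9 and 88.5 against 74.3, 73.9 and 73.7, and in LM1-LM 85.8, 82.7 and 84.5 against 61.6, 59.2 and 65.3. In these 3 lines every deprived culture was below every control culture. The change in MYAZ16.1e was a log2 difference of -0.01 (95% interval -0.08 to 0.07), whereas Gclc fell in the other lines, with a change of -18% for Myc310 (adjusted p = 7.17e-08), -12.7% for LM1 (3.36e-05) and -24.5% for LM1-LM (6.79e-11) by edgeR's quasi-likelihood test after Benjamini-Hochberg adjustment.

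Gclm, which lowers the substrate requirement of the ligase, fell in each line, with a change of -8.0% for MYAZ16.1e, -10.6% for Myc310, -8.85% for LM1 and -11.6% for LM1-LM (adjusted p from 9.01e-05 to 0.00771). The MYAZ16.1e cultures held 109, 97.9 and 103 CPM in control medium and 98, 94.0 and 94.9 without cysteine, with overlap, whereas in the other 3 lines all deprived cultures were below all controls. The MYAZ16.1e call was lost without replicate 3 of both media (adjusted p = 0.0530). Because Gclc fell and Gclm fell less, the Gclc to Gclm ratio per kilobase moved from a median of 1.20 to 1.07 in LM1-LM, and in MYAZ16.1e, where Gclm but not Gclc fell, from 1.35 to 1.51. The cultures of the 2 media did not overlap in this ratio in LM1-LM and did in MYAZ16.1e. Gss, the second synthetic enzyme, gave log2 changes of 0.07, 0.04, 0.09 and 0.03 in the 4 lines, with adjusted p from 0.0952 to 0.544. The 95% intervals reached at most 0.20 upward and -0.07 downward. Its deprived MYAZ16.1e cultures (61.3, 59.1 and 58.2 CPM) were all above the controls (56.9, 57.9 and 54.9 CPM), a separation with p = 0.1 by the exact permutation test.

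Gsr, which regenerates reduced glutathione with NADPH, fell most among the members tested. In MYAZ16.1e its CPM was 128, 120 and 123 in control medium and 103, 108 and 102 without cysteine. In Myc310 it was 169, 168 and 172 against 112, 108 and 113. The LM1 cultures held 168, 177 and 170 against 94.1, 102 and 87.4, and the LM1-LM cultures 190, 199 and 187 against 105, 109 and 114. The groups did not overlap in any line. Gsr fell in each, with a change of -16.2% for MYAZ16.1e (adjusted p = 4.53e-06), -35.1% for Myc310 (1.56e-14), -43.5% for LM1 (2.05e-17) and -41.6% for LM1-LM (3.89e-17) by edgeR's quasi-likelihood test after Benjamini-Hochberg adjustment. These calls and those of Chac1 and Chac2 in the 4 lines, and of Gclc in the 3 lines where it fell, were kept in every alternative fit.

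The peptidases that complete the breakdown of glutathione changed little. Lap3, a leucine aminopeptidase, fell in 3 lines, with a change of -7.46% for Myc310, -6.11% for LM1 and -6.54% for LM1-LM (adjusted p = 0.00133, 0.0068 and 0.00361, edgeR's quasi-likelihood test), and was not past the threshold in MYAZ16.1e (log2 -0.04, adjusted p = 0.281), where without replicate 1 of both media it was (-0.08, adjusted p = 0.0446). Its deprived cultures in LM1 held 169, 168 and 166 CPM against 186, 182 and 181 in control medium, without overlap. Cndp2, a cytosolic dipeptidase, fell in each line, with a change of -7.95% for MYAZ16.1e, -13.6% for Myc310, -8.07% for LM1 and -8.7% for LM1-LM (adjusted p from 0.000261 to 0.0211). In MYAZ16.1e the Cndp2 call was lost without control replicate 3 (log2 -0.11, adjusted p = 0.0526) and without replicate 2 or 3 of both media (0.0848 and 0.219), the call in LM1 without replicate 1 or 2 (adjusted p = 0.170 and 0.0761), and that in LM1-LM without replicate 3 (0.158). The Lap3 call in Myc310 was lost without replicate 2 (adjusted p = 0.0546).

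The transferases were too low for a firm statement. Ggt7 in MYAZ16.1e had 16, 14 and 46 counts in control medium and 39, 32 and 40 without cysteine, and the control library with 46 counts is the deepest one, replicate 3. The log2 change was 0.65 (95% interval -0.02 to 1.32, adjusted p = 0.0926), and without that library it was 1.16 (adjusted p = 0.0107). In the remaining lines the changes of Ggt7 were 0.64, 0.10 and -0.06, none past the threshold. Ggt1 had 0 counts in the 3 MYAZ16.1e controls and 1, 0 and 1 counts in the deprived cultures. It had 11, 9 and 5 counts against 4, 4 and 4 in Myc310, 2, 6 and 6 against 2, 3 and 1 in LM1, and 8, 5 and 1 against 3, 1 and 4 in LM1-LM. The groups overlapped in the last 2 of these.

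**Figure D2:**
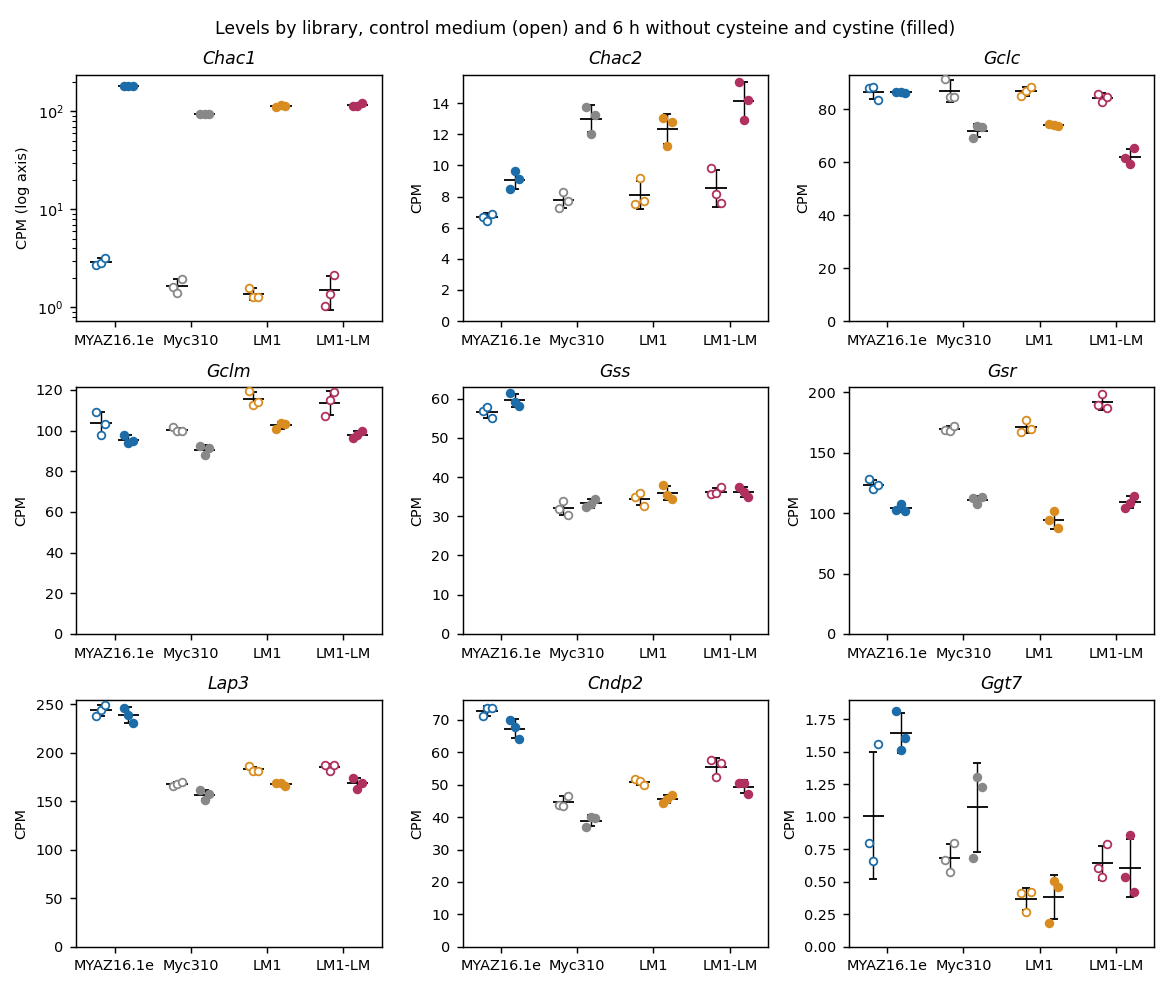
CPM of 9 members in each culture of the 4 deprived lines in control medium (open) and after 6 h without cysteine and cystine (filled), on a log axis for Chac1 and linear axes otherwise, with lines and bars for the mean and SD of 3 cultures. Chac1 and Chac2 stand higher and Gsr lower in the deprived cultures of all 4 lines, and Gclc stands lower in 3 lines but not in MYAZ16.1e.

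**Figure D3:**
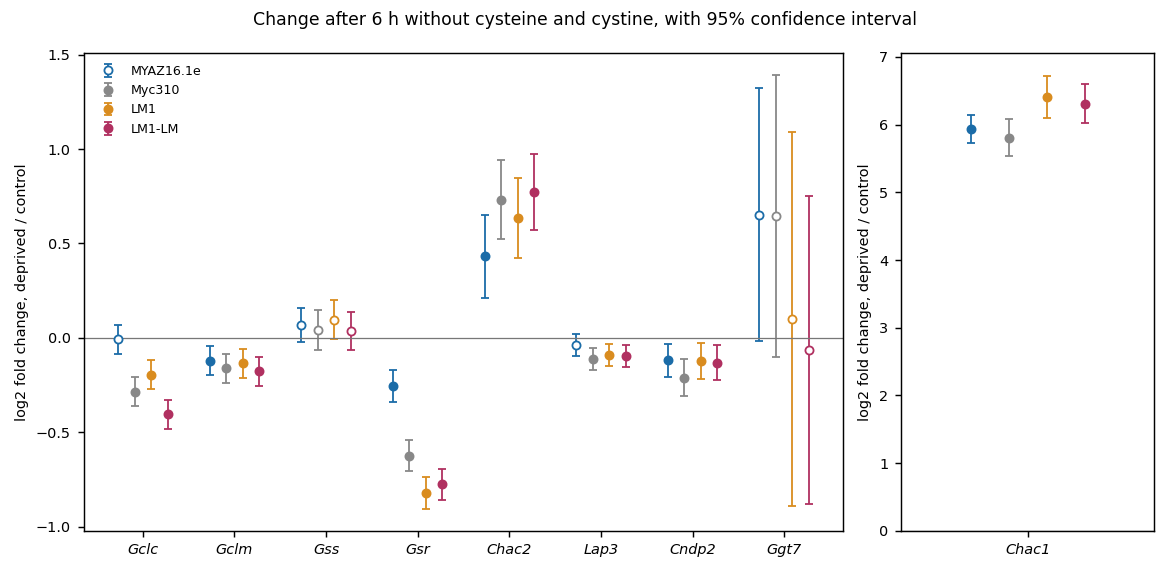
Log2 change of each tested member (deprived against control) in the 4 lines, with 95% intervals and filled points where the adjusted p is under 0.05. Chac1, in a panel of its own, lies between 5.81 and 6.41, Chac2 lies between 0.43 and 0.77, and Gsr lies lowest in each line, between -0.82 and -0.26.

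Set side by side, Chac1 transcripts passed from below those of the catalytic ligase subunit Gclc to above them during deprivation in all 4 lines. The ratio of Chac1 to Gclc per kilobase of exon, computed after the data had been seen, had a median of 0.0735 in MYAZ16.1e control cultures and 4.84 in deprived ones. The medians were 0.0407 and 2.96 for Myc310, 0.0335 and 3.55 for LM1, and 0.0381 and 4.27 for LM1-LM. The lowest deprived culture of the 4 lines stood at 2.94 and the highest control culture of the 11 lines, with NDI1, at 0.150. An exact permutation test of 3 against 3 cultures cannot go below p = 0.1, so the ratio is given as a description. The ratio concerns transcripts and not enzyme activities.

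The paralogues exchanged their order as well. Chac2 was above Chac1 per kilobase in the control cultures of the 4 lines (median Chac1 to Chac2 ratios 0.352, 0.178, 0.132 and 0.135) and far below it in the deprived ones (16.0, 5.67, 7.15 and 6.81). MYAZ16.1e had the highest ratio in both media. The ratio of Chac2 to Gclc stayed below 1 in all cultures, with medians of 0.303, 0.519, 0.497 and 0.625 in the 4 deprived groups. Chac2 transcripts thus remained below those of Gclc in both media.

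**Figure D4:**
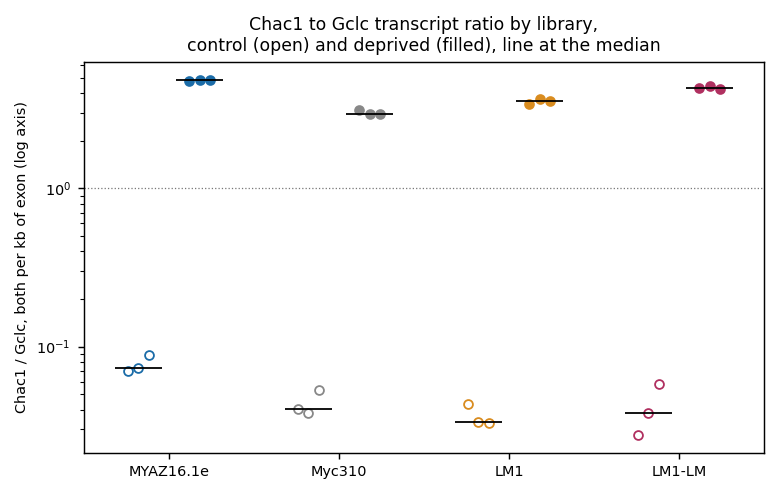
Ratio of Chac1 to Gclc, each in CPM per kilobase of exon, in every culture of the 4 deprived lines on a log axis, with a line at each median of 3 cultures. The 12 control cultures (open) reach up to 0.0881 and the 12 deprived cultures (filled) start at 2.94, on either side of the dotted line at 1, with MYAZ16.1e highest (median 4.84) and Myc310 lowest (2.96) among the deprived groups.

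Whether the lines responded unequally was tested by the interaction of line and medium, with MYAZ16.1e as the common reference for all 3 contrasts. Of the 9 members, 2 responded differently in Myc310 (both more negative) and 3 in each of the lung-derived lines LM1 and LM1-LM (1 more positive and 2 more negative in each). The same test called 40.3%, 52.2% and 54.8% of 13400 genes. Gsr and Gclc were the genes with the more negative response in all 3 lines. The difference in the Gsr response was a log2 value of -0.37 for Myc310, -0.57 for LM1 and -0.52 for LM1-LM (adjusted p = 5.53e-06, 1.32e-09 and 4.58e-09, edgeR's quasi-likelihood test, Benjamini-Hochberg). For Gclc it was -0.28, -0.19 and -0.40 (adjusted p = 7.48e-05, 0.00348 and 1.69e-07), and the LM1 value was not past the threshold without replicate 3 (-0.15, adjusted p = 0.0691).

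The responses of the cyclotransferases differed less clearly. Chac1 responded more in LM1 than in MYAZ16.1e by a log2 value of 0.47 (adjusted p = 0.0277), which was lost in 4 of 11 alternative fits, among them the one without MYAZ16.1e control replicate 3 (0.38, adjusted p = 0.124). The corresponding values were 0.37 in LM1-LM (adjusted p = 0.0645, or 0.57 with adjusted p = 0.0288 without replicate 3) and -0.13 in Myc310 (adjusted p = 0.595). Chac2 responded more in LM1-LM by 0.34 (adjusted p = 0.0499, or 0.112 without MYAZ16.1e control replicate 3), and its values of 0.30 in Myc310 and 0.20 in LM1 were not past the threshold. The Chac2 value in LM1-LM passed the threshold so narrowly that 10 of 11 alternative fits lost it.

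Comparing the lines in each medium in turn, a contrast added after the data had been seen, showed where these unequal responses left the levels. In control medium 5, 8 and 7 of the 9 members differed between MYAZ16.1e and the other lines, Myc310 first, against backgrounds of 70.1%, 70.7% and 70.7% of all genes. Among deprived cultures 7, 9 and 8 differed, against 72.3%, 76.1% and 76.9%. Gsr was 38.5%, 37.8% and 54.2% higher than in MYAZ16.1e in control medium (adjusted p at most 1.38e-11). After deprivation its log2 difference from MYAZ16.1e was 0.10 for Myc310, -0.10 for LM1 and 0.10 for LM1-LM (adjusted p = 0.0301, 0.0269 and 0.0260). The highest of the 4 line means of Gsr exceeded the lowest 1.55-fold in control medium and 1.17-fold after deprivation.

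Gclc went the other way. Its control levels in the 3 lines differed from MYAZ16.1e by log2 values of only 0.02, -0.00 and -0.04 (adjusted p from 0.296 to 0.959), and after deprivation it was lower than in MYAZ16.1e by log2 values of -0.26, -0.19 and -0.44 (adjusted p at most 4.2e-05). The spread of the 4 line means grew from 1.03-fold to 1.39-fold. Chac1 was below MYAZ16.1e in both media, by -0.81, -1.11 and -0.98 in control medium and by -0.94, -0.64 and -0.60 after deprivation (log2, in the same order). Chac2 was above MYAZ16.1e after deprivation in all 3 lines (0.53, 0.48 and 0.68). Gss was lower than in MYAZ16.1e in both media, by log2 values of -0.80, -0.72 and -0.65 in control medium and -0.83, -0.70 and -0.68 after deprivation. Markers of other cell types also differed from MYAZ16.1e in control medium. Of 2 leukocyte markers 2 were higher in each line (median log2 2.12, 1.96 and 2.07), the 1 endothelial marker tested was lower (-4.50, -5.35 and -5.46), as was Ager (-1.08, -1.02 and -1.64). Of 5 fibroblast markers 4, 3 and 3 were lower and 1 was higher in each line. Of 5 mammary epithelial markers 2, 1 and 1 were higher and 3, 4 and 4 lower, with medians of -1.22, -3.04 and -2.64. Their part in the differences was not tested.

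**Figure D5:**
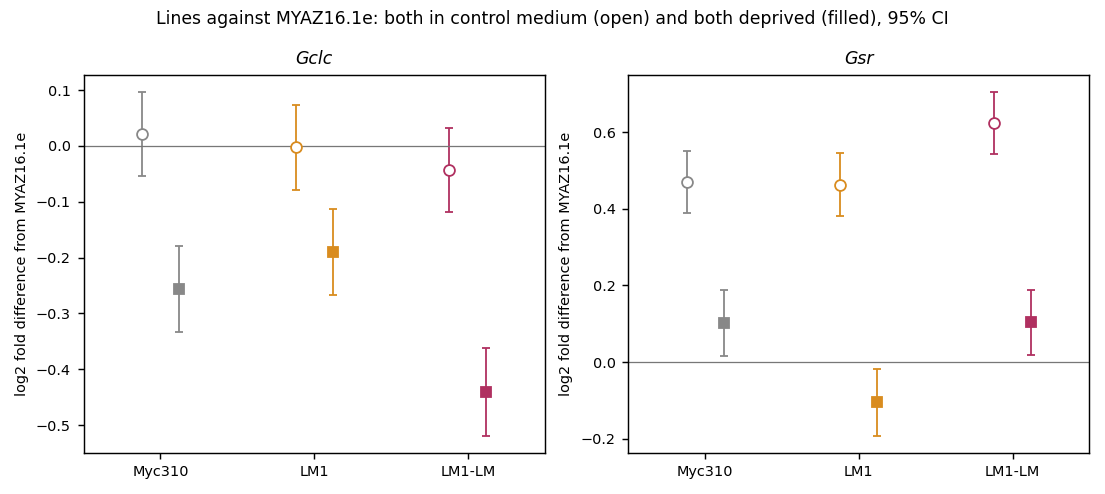
Log2 difference of each other deprived line from MYAZ16.1e for Gclc and Gsr, with both in control medium (open) or both deprived (filled) and 95% intervals. Gsr lies above 0 in control medium and near 0 after deprivation, whereas Gclc lies near 0 in control medium and below it after deprivation.

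The control cultures of 10 lines (30 libraries, NDI1 left out) compared the Myc310, LM and LM-LM subtypes with the MYAZ lines. Myc310 and its derivatives have another origin than the MYAZ lines. Origin and passage through the lung therefore cannot be told apart here, and the LM lines were not tested against Myc310. Of the 10 members, 2 were higher and 6 lower in Myc310 than in the MYAZ lines, 2 higher and 6 lower in the LM lines, and 2 higher and 5 lower in the LM-LM lines, while 50.9%, 60.8% and 62.8% of 13795 genes were called. Gsr and Chac2 were the higher members in each contrast. The log2 differences of Gsr from MYAZ were 0.71, 0.88 and 0.78, and those of Gss were -0.76, -0.80 and -0.76, all past the threshold. Those of Gclc were -0.27, -0.42 and -0.53, the first only just (adjusted p = 0.0494, or 0.0794 without MYAZ12.3i control replicate 2, edgeR's quasi-likelihood test). With the control cultures of the 4 deprived lines alone, the Gclc values were -0.004 for LM and -0.045 for LM-LM (adjusted p = 0.922 and 0.274), so both calls were lost. Gclm was not past the threshold in any contrast, but it was higher with the 4 deprived lines alone in LM (0.15, adjusted p = 0.00331) and LM-LM (0.13, adjusted p = 0.00878), and in LM-LM without LM3-LM (0.17, adjusted p = 0.0255). The degrading paralogues moved in opposite directions. Chac1 averaged 4.05 ± 0.997 CPM over the 3 MYAZ lines (SD of line means), 1.96 ± 0.569 over the LM lines, 1.96 ± 0.390 over the LM-LM lines and 1.66 CPM in Myc310. Chac2 averaged 5.89 ± 0.698, 7.17 ± 1.15, 7.77 ± 0.698 and 7.77 CPM in the same order. The log2 differences of Chac1 from MYAZ were -1.29 for Myc310, -1.04 for LM and -1.07 for LM-LM (adjusted p = 0.000289, 1.33e-05 and 8.91e-06), and those of Chac2 were 0.40, 0.28 and 0.38 (adjusted p = 0.0107, 0.00903 and 0.000674, edgeR's quasi-likelihood test, Benjamini-Hochberg).

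With counts summed per line, so that lines and not cultures were the samples, Chac1 remained lower in LM (-1.03, adjusted p = 0.0457) and LM-LM (-1.05, adjusted p = 0.0397), and Chac2 was no longer past the threshold (adjusted p = 0.246 and 0.125). All LM and LM-LM lines descend from Myc310, so related lines still count as separate samples in this fit. Gsr remained higher (adjusted p = 0.0025 and 0.00384) and Gss lower (0.00274 and 0.00327), while Gclc was past the threshold in LM-LM (0.0368) and not in LM (0.0851). The Chac2 call in LM was also lost without LM1, LM2 or MYAZ6.6g (adjusted p = 0.0924, 0.0528 and 0.0669) and without replicate 1 or 2 (0.0526 and 0.0662). That in Myc310 was lost without replicate 2 or 3 (0.0983 and 0.0618) and with the 4 deprived lines alone (0.0871). Lap3 averaged 243.0 ± 7.54 CPM in MYAZ, 172.6 ± 9.20 in LM, 182.3 ± 21.5 in LM-LM and 167.9 in Myc310, and it was lower in LM and LM-LM in both fits (summed per line, adjusted p = 0.00535 and 0.00901). Cndp2 was lower in LM than in MYAZ (-0.23, adjusted p = 0.0143), but the call was lost without MYAZ16.1e (-0.02, adjusted p = 0.730), without LM2 (0.0611), without replicate 1, 2 or 3 (0.0541, 0.0834 and 0.0616) and with counts summed per line (0.353). Ggt7 averaged 3.83 ± 3.76 CPM in MYAZ against 0.921 ± 0.561 in LM and 1.11 ± 0.762 in LM-LM. Its log2 differences of -2.49 for Myc310, -2.04 for LM and -1.8 for LM-LM rested on MYAZ12.3i, which held 7.79, 7.61 and 8.87 CPM, and without that line they were -1.33, -0.87 and -0.63 (adjusted p = 0.0637, 0.0673 and 0.180). Summed per line, the Ggt7 calls in LM and LM-LM were lost too (adjusted p = 0.112 and 0.143, edgeR's quasi-likelihood test). With the 4 deprived lines alone, those in Myc310 and LM-LM were lost (0.139 and 0.0890, same test). The differences of Ggt1, 0.78, 0.81 and 1.20, were not past the threshold, and leaving out LM2-LM turned the LM-LM value to -0.50, whereas without LM3-LM it was 1.68 and past the threshold (adjusted p = 0.0281). Markers of other cell types moved with these contrasts. Of 2 leukocyte markers tested, 2 were higher in each (median log2 2.33, 2.62 and 2.67). Of 5 fibroblast markers 4, 3 and 4 were lower, and 1 was higher in LM and in LM-LM. Col3a1 reached 199 CPM in LM3-LM. Of 2 endothelial markers, 1 was higher and 1 lower in each, with Kdr at up to 6.36 CPM in MYAZ12.3i. Of 6 mammary epithelial markers, 2 were higher in each and 2, 3 and 3 lower, with median log2 differences of -1.32, -1.07 and -1.92. Ager was lower in each (-1.07, -1.10 and -1.24). Their part in the differences was not tested.

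The line carrying NDI1 was compared with its parent MYAZ12.3i, as 3 cultures of each. Of 10 members 2 were higher and 1 lower, and 17.4% of 12841 genes were called. Chac1 held 7.32, 7.53 and 7.58 CPM with NDI1 and 5.32, 4.31 and 4.49 without it, with no overlap, a 1.58-fold difference (log2 0.66, 95% interval 0.40 to 0.92, adjusted p = 0.00170). Ggt7 held 4.28, 5.59 and 5.15 CPM with NDI1 against 7.79, 7.61 and 8.87, also without overlap (log2 -0.69, adjusted p = 0.00156). Lap3 was higher by a log2 value of 0.10 (adjusted p = 0.0402), which was lost on leaving out any 1 replicate number and without MYAZ12.3i control replicate 2 (adjusted p = 0.0591). Without that library Chac1 (0.60, adjusted p = 0.00974) and Ggt7 (-0.73, adjusted p = 0.00419) stayed past the threshold of edgeR's quasi-likelihood test. Gclc, Gclm, Gss, Gsr, Chac2, Ggt1 and Cndp2 were not past the threshold in this pair. Of the markers tested, 2 of 4 mammary epithelial and 2 of 5 fibroblast markers were higher with NDI1 and none of either list was lower, and their part was not tested.

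Among 29 other genes of glutathione turnover and of the supply of its amino acids, 27 were tested under deprivation. In MYAZ16.1e 10 rose and 7 fell, in Myc310 12 and 8, in LM1 13 and 10, and in LM1-LM 13 and 11, with median log2 changes of 0.12, 0.02, 0.14 and 0.12 against medians near 0 over all genes. Of all genes 53.7%, 66.8%, 71.1% and 72.4% were called in the 4 lines. The 4 genes with the largest changes were the same in each line and all rose. Slc7a11, the light chain of the cystine-glutamate exchanger, rose by 3.42, 2.94, 3.97 and 3.93 on the log2 scale in the 4 lines. Cth, which makes cysteine from cystathionine, rose by 3.1, 3.01, 3.32 and 3.34, the glycine transporter Slc6a9 by 3.02, 2.71, 3.18 and 3.22, and the neutral amino acid transporter Slc1a4 by 1.95, 2.02, 2.44 and 2.47. Ggct, the cyclotransferase that acts on other γ-glutamyl amino acids and was singled out after its values were seen, gave -0.26 in MYAZ16.1e, where it was not past the threshold, and fell in the other lines (-0.59, -0.84 and -0.41).

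The responses of the members can be read beside 2 lists of known targets. Of 10 genes in the ATF4 list, Atf4 itself and 9 targets, 10 rose in MYAZ16.1e, Myc310 and LM1 and 9 in LM1-LM, with median log2 changes of 3.48, 2.56, 3.26 and 3.39. Of 10 targets of NRF2, 4 rose and 1 fell in MYAZ16.1e, 4 rose and 4 fell in Myc310, and 6 rose and 4 fell in both LM1 and LM1-LM, with medians of -0.01, -0.00, 0.26 and 0.30. The sizes were uneven. Hmox1 rose by log2 2.11, 3.03, 3.85 and 3.83 and Osgin1 by 1.72, 2.64, 3.25 and 3.01, whereas the largest fall was that of Gsta4 in LM1 (-1.23). Of all genes 26.6%, 32.8%, 35.8% and 36.5% rose and 27.1%, 33.9%, 35.3% and 35.9% fell in the 4 lines. Slc7a11 and Txnrd1 are in both the NRF2 list and the list of other glutathione genes. Chac1 moved in the direction of every called gene of the ATF4 list, and so did Chac2, whose promoter window held neither motif. NRF2 targets were called in both directions in all 4 lines. Both lists were chosen with earlier results of these data known. Whether ATF4 or NRF2 acted on a member was not tested.

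Genes whose group means followed a member most closely over the 15 groups of line and medium were named by Pearson's correlation of log2 CPM among genes whose log2 CPM averaged 3 or more (8962, or 8963 for members below that level), as a description, since the 15 groups share lines. For Chac1 these were Herpud1 (r = 0.984) and Rheb (0.983), and for Chac2 Elac1 (0.982) and Akap9 (0.963). Gsr was followed by Sema6b (0.965) and Fundc2 (0.961), Gclc by Sowahc (0.955) and Iftap (0.949), and Gss by Arhgap1 (0.971) and Ttl (0.968). The closest to Lap3 were Stxbp4 (0.978) and Mrps5 (0.973), and to Cndp2 Hmga1 (0.957) and Surf4 (0.95). The closest to Ggt1, whose counts are near the floor, were Lysmd2 (0.831) and Zfp444 (0.817). The points compared include 4 deprived groups and 11 control groups, and some lines enter in both media.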

How the data were processed

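RNA from 45 cultures was sequenced as polyadenylated libraries made with a directional kit, and the authors aligned and quantified the reads with STAR and RSEM against GRCm38. The deposited values are whole-number gene counts per library, without normalization. The submitters' processing notes also name R 4.2.2 and DESeq2 1.38.3. The members and the gene lists were chosen with earlier results of these data known.

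Tests were run with edgeR 4.0.16 (with limma 3.58.1, in R 4.3.3). Genes were filtered with filterByExpr, scaled by TMM and tested by the quasi-likelihood test after Benjamini-Hochberg adjustment over all genes tested, with a threshold of 0.05. Responses to deprivation, interactions and line differences came from 1 model of 24 libraries in 8 groups, subtype differences from 30 control libraries of 10 lines, and the NDI1 difference from 6 libraries. All interactions and line differences share the MYAZ16.1e libraries, and subtype differences share the MYAZ libraries. Levels are CPM (counts scaled to library size) after TMM over all 45 libraries, with the SD over 3 cultures, and per kilobase of the union of exons. Standard errors are Wald errors, and intervals are at 95%. A count of 0 was taken to allow up to 3 counts, which covers counting error only. Other genes of the pathway were named as the 4 with the largest absolute log2 change, and similar genes as the 2 with the highest correlation, which for Gclm and Ggt7 are not reported here.

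The tests were checked on simulated counts. Alternatives were other normalizations (RLE and upper-quartile) and filters, DESeq2 1.42.0, fewer libraries (that without MYAZ12.3i control replicate 2 was chosen after seeing the data), counts summed per line, and a replicate block. Each pair of cultures of 1 group differed by more than sampling noise.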

Additional observations from a re-analysis of the deposited data

Results flagged for a closer look

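In 8 cases the response of a member to deprivation differed from its response in MYAZ16.1e, by the interaction term of edgeR's quasi-likelihood test (adjusted p under 0.05 over 13400 genes). All 3 contrasts share the MYAZ16.1e libraries, so the cases are not independent. The difference in the Gsr response was -0.37 for Myc310, -0.57 for LM1 and -0.52 for LM1-LM on the log2 scale, and that of Gclc was -0.28, -0.19 and -0.40. Each had the same direction in all 3 lines. Chac1 gave 0.47 in LM1 (adjusted p = 0.0277) and Chac2 0.34 in LM1-LM (adjusted p = 0.0499), and over the alternative fits the adjusted p of the first ranged from 0.0151 to 0.253 and that of the second from 0.0383 to 0.338.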

How the results depend on the processing

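Of 1257 values of the members recomputed under an alternative, 1146 kept their direction and their side of the threshold, 63 lost and 17 gained a call, and 31 changed sign. Apart from Gclc in Myc310 against MYAZ, each value that changed sign was not past the threshold to begin with. The causes of these changes were not tested. With plain library totals in place of TMM, 37 group means of a member moved by more than their SD and 113 did not. Lap3 in deprived LM1 moved from 168 to 157 CPM. With counts summed per line, 4 members differed between LM and MYAZ in place of 8. In Myc310 against MYAZ 5 members were called in place of 8 when MYAZ16.1e, Myc310, LM1 and LM1-LM were the only lines, with Gclc at 0.019 and Gclm at -0.034, 5 to 6 when 1 replicate number was left out and 7 without MYAZ12.3i control replicate 2. The Gclc call in that contrast was also lost without MYAZ12.3i or MYAZ6.6g (adjusted p = 0.279 and 0.0799). The members called in the response of LM1 against MYAZ16.1e numbered 1 to 3 when 1 replicate was left out, with 1 without replicate 3.

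Upper-quartile scaling turned Gss to -0.048 in the LM1-LM response and -0.054 in the LM1 interaction, the latter was -0.00042 with the compared lines alone, and without a filter Cndp2 in the LM1 interaction was 0.011. In LM-LM against MYAZ, Gclm was -0.10, -0.0202, -0.0201 and -0.0065 without LM1-LM, LM2-LM, MYAZ12.3i and MYAZ6.6g, Ggt1 was -0.50 without LM2-LM and Cndp2 was 0.090 without MYAZ16.1e, and Gclm in LM was -0.080 without LM1.

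Leaving out 1 replicate gave these ranges where a sign changed. For responses, Gclc in MYAZ16.1e ranged from -0.039 to 0.0025, Gss in Myc310 from -0.022 to 0.088 and in LM1-LM from -0.012 to 0.076, and Ggt7 in LM1 from -0.34 to 0.51 and in LM1-LM from -0.49 to 0.29. For interactions in Myc310, Gclm ranged from -0.065 to 0.0056, Gss from -0.079 to 0.0065 and Ggt7 from -0.53 to 0.44. For those in LM1, Gclm ranged from -0.033 to 0.011, Ggt7 from -1.1 to 0.075, Lap3 from -0.098 to 0.0021 and Cndp2 from -0.082 to 0.080. For LM1-LM, Gss ranged from -0.062 to 0.019 and Cndp2 from -0.071 to 0.041. With NDI1, Chac2 ranged from -0.12 to 0.038 (0.0072 without MYAZ12.3i control replicate 2). Interactions of Chac2 passed the threshold without replicate 2 in Myc310 (0.48) and LM1 (0.43), and with upper-quartile scaling those of Lap3 did in Myc310, LM1 and LM1-LM (-0.11, -0.13 and -0.15) and that of Gclm in LM1-LM (-0.14). Cndp2 in LM-LM passed it with the 4 deprived lines alone (-0.40) and without MYAZ12.3i (-0.24), and Gclm in the NDI1 pair with all 33 control libraries (-0.11).

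The replicate numbers did not pair the cultures: of 12 pairs with the same number the deviations from the group mean correlated between -0.0778 and 0.0406, none over 0.1. With the replicate block, the members called were 5, 7, 7 and 7 for the responses, 2, 3 and 2 for the interactions, 7, 8 and 7 for the subtypes and 3 for NDI1. Chac2 in the LM1-LM interaction (adjusted p = 0.0561) and Gclc in Myc310 against MYAZ (adjusted p = 0.0596) were the calls it lost. Low counts limit Ggt1 and Ggt7, and 1 line per subtype limits the deprivation contrasts.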
